A study of Mus musculus with 5 samples.

Results

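Glycolysis and the response to low oxygen were followed through 35 genes, chosen by symbol, among the 55450 genes counted in single cells of mouse cortex. They comprise 16 glycolytic enzymes, 7 genes of glucose and lactate transport and glycolytic control, Hif1a with 2 prolyl hydroxylases, and 9 genes widely used as targets of the hypoxia-inducible factor (HIF). All 35 were found in the matrices by symbol. The cells came from C57BL/6J mice in 5 groups of 1 library each, made with the 10x Genomics droplet method: sham mice, and mice with traumatic brain injury (TBI) taken 1, 3, 7 or 14 days later. Injured tissue is labelled as coming from the lesion, whereas the sham label gives no position within the cortex. How the injury was made, the age and sex of the mice and the number of mice in a library are not given in the sources used here.

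Glycolysis turns glucose into pyruvate in the cytosol, and lactate dehydrogenase converts pyruvate to lactate, which keeps the pathway running when mitochondria lack oxygen. When oxygen is present, prolyl hydroxylases mark the HIF alpha subunit, the product of Hif1a, for degradation. When oxygen is scarce the subunit accumulates, binds hypoxia response elements and raises the transcription of glucose transporters, most glycolytic enzymes, Pdk1 and genes of mitophagy, collagen modification and vessel tone. In the brain, endothelial cells bring in glucose through the transporter encoded by Slc2a1, and astrocytes and oligodendrocytes can pass lactate to other cells.

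The core of the hypoxia response element was searched in RefSeq promoters (GRCm38.p6, 250 bases before to 50 bases after the start) as ACGTG or GCGTG on both strands, so that CACGTG, which reads the same on both strands, gives 2 overlapping matches. Of the 35 members, 32 had a promoter entry (Slc2a3, Bnip3l and Ndrg1 had none, and Ero1l was matched under its RefSeq symbol Ero1a), and 29 of the 32 (90.6%) held at least 1 match in a promoter. The share was 46.7% over all 27025 genes of the promoter table and 70.0% over the 6547 genes measured in microglia-like cells that had an entry. Gpi1, Tpi1 and Eno2 were the members with no match in the window. Shown here are the promoters of genes that the results turn on: those of Pgk1, Ldha and Tpi1, enzymes with high day 1 levels in microglia-like cells, and those of P4ha1, Ddit4 and Adm, HIF target genes whose levels moved in different directions. Each is written from 5′ to 3′ on the strand of its gene, with every match in capitals. The regions are chrX:106186850-106187149 (plus strand) for Pgk1, chr7:46845554-46845853 (plus) for the first of the Ldha promoters, chr6:124814109-124814408 (minus) for Tpi1, chr10:59323046-59323345 (plus) for P4ha1, chr10:59951721-59952020 (minus) for Ddit4 and chr7:110627407-110627706 (plus) for Adm.
Pgk1: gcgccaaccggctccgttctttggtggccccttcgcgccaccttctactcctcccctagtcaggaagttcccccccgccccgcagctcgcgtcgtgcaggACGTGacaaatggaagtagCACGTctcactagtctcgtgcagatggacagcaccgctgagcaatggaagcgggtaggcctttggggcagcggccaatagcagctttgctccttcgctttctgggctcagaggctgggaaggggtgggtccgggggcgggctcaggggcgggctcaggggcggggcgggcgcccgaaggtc
Ldha: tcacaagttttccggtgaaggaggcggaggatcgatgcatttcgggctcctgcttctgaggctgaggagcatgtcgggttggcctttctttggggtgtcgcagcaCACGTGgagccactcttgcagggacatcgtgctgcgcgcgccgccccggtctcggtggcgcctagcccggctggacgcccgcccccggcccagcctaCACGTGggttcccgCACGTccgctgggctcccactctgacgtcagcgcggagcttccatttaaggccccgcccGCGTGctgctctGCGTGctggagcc
Tpi1: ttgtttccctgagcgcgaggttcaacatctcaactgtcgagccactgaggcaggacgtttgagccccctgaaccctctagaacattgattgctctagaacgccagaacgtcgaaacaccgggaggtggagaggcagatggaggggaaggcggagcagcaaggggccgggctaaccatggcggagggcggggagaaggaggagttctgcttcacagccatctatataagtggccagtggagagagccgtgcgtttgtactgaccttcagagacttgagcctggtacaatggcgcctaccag
P4ha1: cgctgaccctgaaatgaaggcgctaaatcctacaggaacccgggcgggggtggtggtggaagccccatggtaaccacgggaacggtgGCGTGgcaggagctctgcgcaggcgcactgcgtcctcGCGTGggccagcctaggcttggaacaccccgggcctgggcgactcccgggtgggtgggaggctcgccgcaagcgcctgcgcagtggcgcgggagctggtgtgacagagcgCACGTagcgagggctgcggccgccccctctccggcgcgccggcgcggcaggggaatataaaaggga
Ddit4: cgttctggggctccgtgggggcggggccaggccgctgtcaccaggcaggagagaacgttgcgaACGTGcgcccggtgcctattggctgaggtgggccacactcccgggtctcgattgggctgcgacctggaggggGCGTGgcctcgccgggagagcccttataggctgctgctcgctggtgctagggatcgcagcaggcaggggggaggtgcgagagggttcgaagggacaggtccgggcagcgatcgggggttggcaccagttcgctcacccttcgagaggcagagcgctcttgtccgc
Adm: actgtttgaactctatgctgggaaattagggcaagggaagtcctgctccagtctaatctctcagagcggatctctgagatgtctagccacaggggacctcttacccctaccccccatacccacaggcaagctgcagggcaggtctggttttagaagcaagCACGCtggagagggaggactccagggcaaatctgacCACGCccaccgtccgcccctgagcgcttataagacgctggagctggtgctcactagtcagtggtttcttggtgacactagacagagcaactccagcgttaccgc
The windows held 7 matches for Ldha, 3 for P4ha1, 2 each for Pgk1, Ddit4 and Adm, and 0 for Tpi1. A match describes the letters of the window and is not a measured binding site.

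With 1 library per group there was no replicate and no test, and the comparisons below describe libraries. Unique molecular identifiers (UMIs, each standing for 1 captured RNA molecule) were added up within each cell class, and a level is given in CPM, a gene's count per 1000000 UMIs of the class. Ranges in brackets or after "95%" are exact intervals for counting error alone, and they do not cover differences between mice. A gene was taken as measured where its mean over the 2 libraries compared was at least 10 CPM, and "rose" or "fell" is written where it differed at least 2-fold. The libraries held 9895 to 14159 barcodes and 11279455 (sham) to 129161094 (day 14) UMIs, with medians of 773, 1756, 3256, 6581 and 8558 UMIs per barcode from sham to day 14. Between 1.14% and 1.36% of a library's barcodes also occurred in another library, and 12.7% of the day 7 barcodes had over 20% mitochondrial UMIs and were left out. After filters 55321 cells were kept. Classes were named by likeness to markers, and no cell annotation of the authors was used.

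Several classes were drawn from different clusters in each library, which bears on every comparison of microglia-like and astrocyte-like cells. Microglia-like cells came mainly from the cluster led by Hspa1b in sham, Ccl12 at day 1, Ccl4 at day 3, P2ry12 at day 7 and Cst7 at day 14. All 19 microglia markers were detected in them in each library, with a summed level of 105424 CPM in sham and 52546 to 57927 CPM after injury. The sham cells had more immediate early and heat shock RNA, genes that dissociation of tissue can induce, with 18.2 of 500 UMIs against 4.88 to 9.67 in the injured libraries. Monocyte/macrophage markers summed to 701 CPM in sham (16 of 24 detected) and to 1174, 1728, 1804 and 3836 CPM from day 1 to day 14 (22 to 24 of 24).

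In microglia-like cells, 2456 to 5784 per library, more glycolytic enzymes rose at days 1 and 14 than at days 3 and 7. At day 1, 6 of 15 measured enzymes rose (Pkm, Pgk1, Tpi1, Gapdh, Ldha and Pgam1) and 1 fell (Ldhb), beside 7.9% of all 8725 measured genes that rose and 10.4% that fell. The median log2 ratio of the enzymes was 0.90, against -0.06 over all genes. At day 14, 6 of 12 rose (Pkm, Tpi1, Pgk1, Pgam1, Gpi1 and Gapdh) and 0 fell, beside 5.12% and 25.2% of all genes, and the medians were 1.01 and -0.54. Days 3 and 7 held 0 enzymes that rose: 2 of 13 fell at day 3 (Pfkl and Pfkm, beside 8.27% of all genes higher and 21.5% lower) and 1 of 14 at day 7 (Pfkm, beside 4.34% and 11.9%).

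Pkm, which encodes the pyruvate kinase that makes pyruvate, had a level of 143 CPM in the sham library, then 633, 277, 216 and 379 CPM at days 1, 3, 7 and 14. Its day 1 log2 ratio to sham was 2.15 (95% 2.02 to 2.28) and its day 14 ratio 1.41 (1.28 to 1.54). The day 1 interval of 615 to 651 CPM lay above those of the other 4 libraries. Pgk1, the first ATP-forming enzyme of the pathway, was at 66.0, 276, 102, 81.7 and 156 CPM from sham to day 14. Tpi1, which interconverts the triose phosphates, was at 86.7, 282, 99.1, 145 and 246 CPM. Both thus shared the order of Pkm in their highest libraries, day 1 and then day 14, with log2 ratios of 2.06 (1.87 to 2.26) and 1.70 (1.53 to 1.87) at day 1.

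Gapdh, the NAD-dependent dehydrogenase in the middle of the pathway, stood at 546, 1419, 946, 643 and 1175 CPM, and Pgam1, phosphoglycerate mutase, at 90.2, 184, 146, 114 and 209 CPM. Gapdh was highest at day 1, with a ratio of 1.38 (1.31 to 1.45), and Pgam1 at day 14, with 1.21 (1.05 to 1.37). Ldha, the lactate dehydrogenase subunit that favours lactate, was at 179, 456, 197, 168 and 268 CPM. In plain CPM it rose at day 1 alone (1.35, 1.23 to 1.47) and lay within 0.13 of sham on the log2 scale at days 3 and 7. With TMM factors, and relative to the median of all genes, Ldha also passed 2-fold at day 14. Ldhb, the subunit that favours pyruvate, went the other way at day 1, at 486 CPM in sham and 138, 400, 456 and 352 CPM afterwards. Its day 1 ratio was -1.82 (-1.93 to -1.71), and days 3, 7 and 14 were 0.28, 0.09 and 0.46 below sham on that scale.

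Hexokinase and phosphofructokinase act at the entry of the pathway. Hk2 was at 372, 710, 518, 403 and 187 CPM, with ratios of 0.93 (0.85 to 1.02) at day 1 and -0.99 (-1.08 to -0.91) at day 14, neither of which passed 2-fold, although with TMM factors the day 1 ratio did. Pfkl fell at day 3 alone, from 47.5 to 13.1 CPM (-1.86, -2.21 to -1.52), and stood at 58.8, 56.6 and 61.5 CPM at days 1, 7 and 14. Gpi1, the isomerase between those steps, was at 88.3 CPM in sham and 201 CPM at day 14 (1.18, 1.02 to 1.35). Eno1 and Aldoa stayed within 2-fold of sham in each injured library, at 95.9 to 184 CPM and 215 to 459 CPM. Hk1, Pfkp and Eno2 were at 15 CPM or less in each library, with no change past 2-fold where measured, and Pfkm fell from 17.7 CPM in sham to 7.20 and 7.73 CPM at days 3 and 7.

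**Figure D1:**
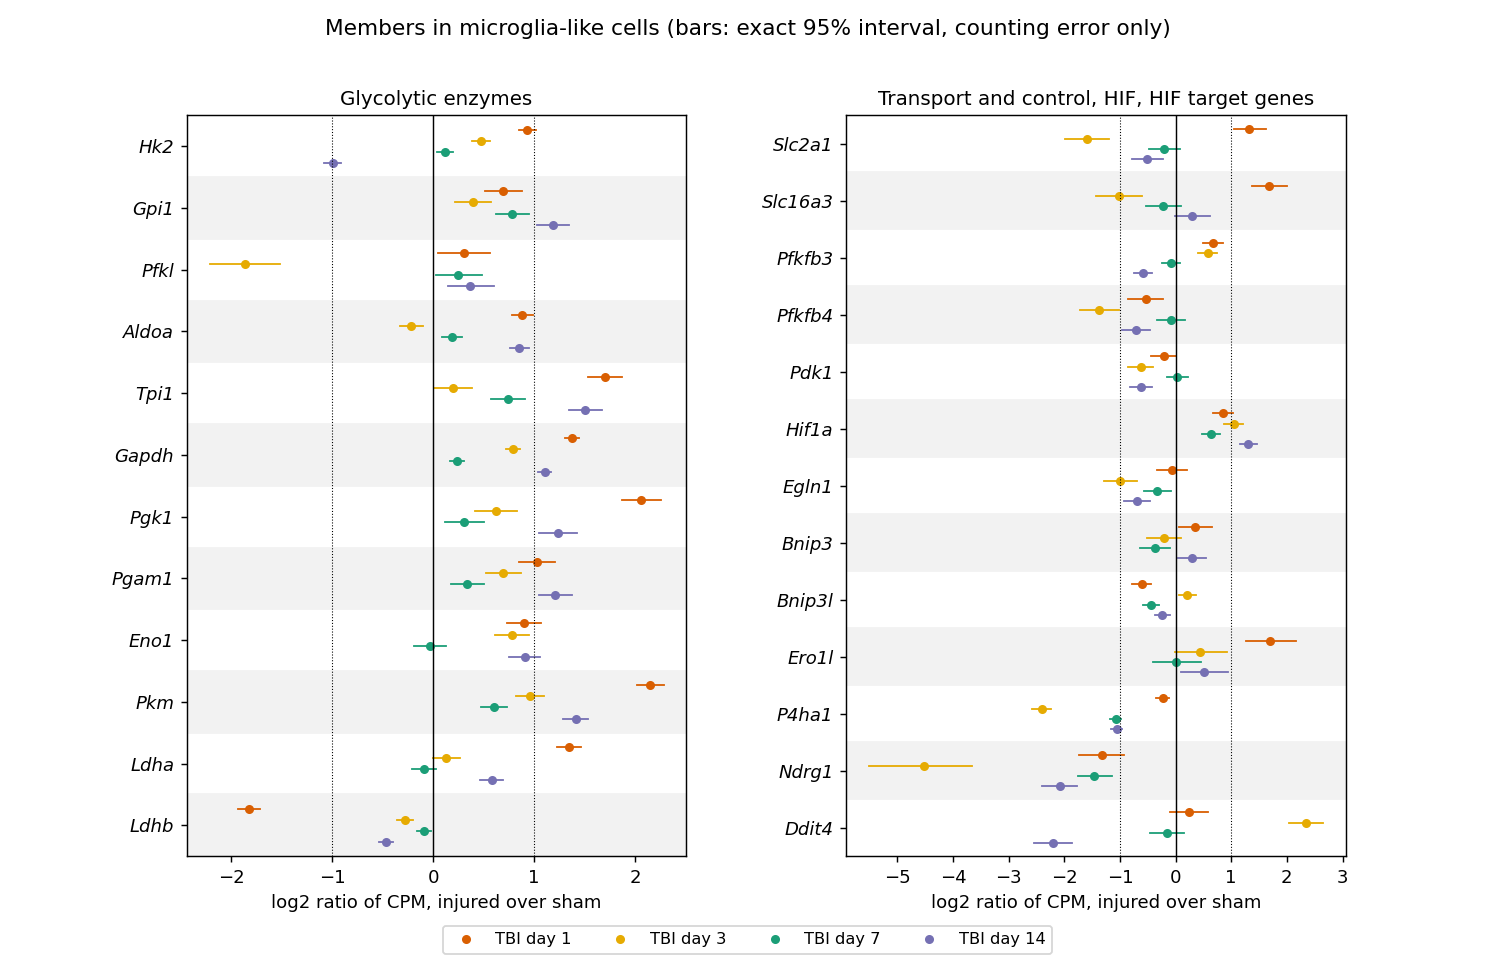
Log2 ratio of CPM, each injured library over sham, for members in microglia-like cells (left, enzymes; right, transport and control, HIF and HIF target genes). Points are single libraries coloured by day and bars are exact 95% intervals for counting error; the day 1 points of Pkm, Pgk1, Tpi1, Gapdh and Ldha lie right of the 2-fold line while Ldhb lies left of it.

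The microglia-like enzyme counts depended on how the libraries were scaled and, at day 14, on the cells compared. The median of all measured genes lay 0.06, 0.32, 0.31 and 0.54 below sham (log2) at days 1, 3, 7 and 14. With TMM factors, which bring that median to between 0.02 and 0.17, 7 enzymes rose and 1 fell at day 1, 4 rose and 1 fell at day 3, 2 and 0 at day 7 and 10 and 0 at day 14. Read relative to the median itself, the counts were 6 and 1, 4 and 1, 2 and 0, and 9 and 0. The shares of all genes given in this report are those of plain CPM over all cells of a class. Counts under another scaling or in matched cells, here and for the classes below, thus have no background share beside them. Among cells with 5 to 19 immediate early and heat shock UMIs, of which sham held 2437 and the injured libraries 1927 to 2682, the day 1 counts were again 6 and 1, with the same 6 genes, while 0 of 12 enzymes passed 2-fold at day 14. There Gpi1 and Tpi1 had day 14 ratios of 0.96, Pkm and Pgam1 0.93, Pgk1 0.63 and Gapdh 0.62. These matched-cell counts and ratios are in plain CPM, and the median of all genes in the same cells was -0.43 at day 14. Read relative to that median, each of the genes just named passed 2-fold.

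Genes of transport were also high at day 1 in microglia-like cells. Slc2a1, the glucose transporter GLUT1, was at 32.3 CPM in sham and 81.2, 10.7, 28.1 and 22.7 CPM at days 1, 3, 7 and 14. Slc16a3, the lactate exporter MCT4, was at 25.8, 82.8, 12.7, 22.2 and 31.7 CPM. Both rose at day 1, by ratios of 1.33 (1.04 to 1.62) and 1.68 (1.37 to 2.01), and both fell at day 3, to -1.59 (-1.99 to -1.19) and -1.02 (-1.42 to -0.61), although Slc16a3 did not pass 2-fold there with TMM factors. Slc16a1, the lactate and pyruvate carrier MCT1, rose with them at day 1, from 12.2 to 28.3 CPM. In all, 3 of 6 measured members of this list rose and 0 fell at day 1 (7.9% and 10.4% of all genes), and 0 rose and 3 of 6 fell at day 3, Pfkfb4 among them (8.27% and 21.5%); with TMM factors the day 3 ratio of Slc16a3 did not pass 2-fold. Pfkfb3, which makes the activator of phosphofructokinase, stood at 64.3 to 153 CPM and Pdk1, the kinase that shuts off pyruvate dehydrogenase, at 45.0 to 71.2 CPM, and neither moved 2-fold.

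Hif1a was above sham in the 4 injured libraries, at 90.2 CPM in sham and 163, 186, 140 and 224 CPM from day 1 to day 14. Its ratio passed 2-fold at day 3 (1.04, 0.87 to 1.22) and day 14 (1.31, 1.15 to 1.47). In the cells matched for immediate early RNA it did not pass 2-fold at day 14 in plain CPM. Egln1, the main prolyl hydroxylase, lay between 22.8 and 45.4 CPM and was highest in sham. Hif1a RNA is not a measure of the protein, whose level is set by hydroxylation.

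HIF target genes read apart from the enzymes had no shared direction in microglia-like cells. At day 1, 1 of 6 measured rose (Ero1l) and 1 fell (Ndrg1), beside 7.9% and 10.4% of all genes, and at day 3 Ddit4 rose while P4ha1 and Ndrg1 fell (8.27% and 21.5%). At day 7, 0 rose and 2 fell (4.34% and 11.9%), and at day 14, 0 rose and 3 fell (5.12% and 25.2%); under both other scalings day 7 had 0 and 1, without P4ha1, and day 14 had 1 and 2, with Ero1l up. The medians were 0.00, 0.00, -0.41 and -0.65, against -0.06, -0.32, -0.31 and -0.54 over all genes.

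P4ha1, the collagen prolyl hydroxylase subunit, was at 255, 217, 48.2, 121 and 123 CPM from sham to day 14. The day 3 library was the lowest, at a ratio of -2.40 (-2.57 to -2.24). Ddit4, which restrains the mTOR kinase and also responds to glucocorticoids and energy stress, was at 26.9, 31.7, 136, 24.1 and 5.82 CPM. It was thus highest at day 3 (2.34, 2.04 to 2.65) and lowest at day 14 (-2.21, -2.54 to -1.86). Ndrg1, a stress-response gene abundant in myelinating cells, was at 30.4, 12.1, 1.33, 11.1 and 7.18 CPM, and Ero1l, the oxidase that drives disulfide formation in the endoplasmic reticulum, at 13.6, 44.2, 18.5, 13.7 and 19.3 CPM; both stayed under 50 CPM and were named after their values were seen. Oligodendrocyte markers in these same cells moved with Ndrg1, summing to 4576, 1894, 702, 2129 and 1075 CPM (16 of 16 detected in each library), and their part in the Ndrg1 values was not tested. Bnip3 and Bnip3l, receptors for mitophagy, lay between 27.7 and 45.6 CPM and between 88.5 and 156 CPM, with no change past 2-fold. P4ha2, Ankrd37, Adm, Egln3 and Slc2a3 were at 10.4 CPM or less in each microglia-like library.

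The injured libraries were also compared directly, without sham. From day 1 to day 3, 6 of 13 enzymes fell in microglia-like cells and 1 rose (Ldhb), beside 15.2% and 5.9% of all genes, with a median of -0.78 against -0.25. From day 1 to day 14, 1 of 12 rose (Ldhb) and 1 fell (Hk2), beside 4.67% and 21.3% of all genes, with a median of -0.11 against -0.48. Of the 12 enzymes measured in all 5 libraries, 7 were highest at day 1 and 4 at day 14, where 30.2% and 7.37% of all genes had their highest library. This order is that of plain CPM: the enzymes' median ratio to sham was 0.90 at day 1 and 1.01 at day 14 in CPM, and 0.99 and 1.70 with TMM factors.

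Other genes of the pathways were read from lists with no members in them. Of 34 other glycolysis and pyruvate genes, 2 rose and 3 fell among 17 measured at day 1, and 1 rose and 4 fell among 16 at day 14. The shares of all genes that rose and fell on these days are given above with the microglia-like enzymes. The falls at day 14 lay close to that share. Slc2a5, the fructose transporter marking resting microglia, fell from 242 CPM in sham to 31.1, 32.0, 46.4 and 36.7 CPM. Aldoc, the aldolase of astrocytes, was at 144, 59.3, 45.7, 117 and 4.71 CPM, and the astrocyte markers in these cells summed to 1651, 1178, 716, 1078 and 209 CPM (19 of 19 detected in each library); their part in the Aldoc values was not tested. Hk3, a hexokinase of myeloid cells, was at 56.8 CPM in sham and 16.7 to 41.6 CPM after injury.

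Among 20 other HIF target genes, 4 of 12 measured rose and 0 fell at day 1, and 2 rose and 5 fell at day 14. Beside the shares of all genes given above with the microglia-like enzymes, the rises at day 1 were more frequent and the falls less frequent. Mif, a secreted cytokine, was at 192, 751, 462, 228 and 450 CPM, and Tfrc, the transferrin receptor, at 20.4, 72.2, 15.3, 14.6 and 7.70 CPM. Mif and Tfrc were both highest at day 1. Of the 10 other HIF pathway genes found, Elob, which together with Eloc forms part of the VHL ubiquitin ligase, was at 180, 389, 440, 223 and 307 CPM, and Eloc at 89.4, 148, 103, 92.5 and 103 CPM. Egln2, another prolyl hydroxylase, was highest in sham, at 55.4 CPM, and lay between 27.4 and 40.8 CPM after injury.

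Astrocyte-like cells (280 to 4566 per library) held few enzyme changes, with counts near those of all genes. At day 1, 2 of 15 measured enzymes rose (Hk2 and Pfkp) and 1 fell (Ldhb), beside 12.3% and 14.2% of all genes; with TMM factors 2 enzymes rose and 0 fell, and in the cells with 5 to 19 immediate early and heat shock UMIs Hk1 and Pfkp rose and Ldhb fell. The median was 0.12 against -0.07 over all genes. Hk2 was at 20.8, 140, 74.7, 31.7 and 24.9 CPM, highest at day 1 (2.75, 2.39 to 3.12) and next at day 3 (1.84, 1.49 to 2.23). Pfkp, the platelet-type phosphofructokinase, was at 153, 311, 135, 138 and 181 CPM, and Ldhb at 617, 271, 487, 919 and 806 CPM. Ldha lay between 112 and 229 CPM.

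Transport and control genes rose with Hk2 in astrocyte-like cells at day 1, 3 of 5 measured up and 1 down (12.3% and 14.2% of all genes), with a median of 1.40. Slc2a1 was at 153, 410, 79.1, 70.6 and 75.2 CPM, which put day 1 above sham (1.42, 1.28 to 1.56) and days 7 and 14 more than 2-fold below it. The fall at day 7 did not pass 2-fold with TMM factors or relative to the median of all genes. Slc16a1 was at 54.4, 238, 124, 51.8 and 227 CPM and Pfkfb3 at 57.5, 152, 37.1, 28.5 and 48.7 CPM. Slc16a1 was thus high at days 1, 3 and 14 and Pfkfb3 at day 1. Pdk1 lay between 14.9 and 20.6 CPM in the 5 libraries.

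Later libraries of astrocyte-like cells held few enzyme changes past 2-fold: Hk2 at day 3 (9.76% of all genes rose and 14.9% fell), 0 at day 7 (4.22% and 10.0%) and Pgam1 at day 14 (15.9% and 9.15%), at 340 CPM against 150 in sham, a call that TMM factors removed. Of the 15 enzymes, 8 had their highest level at day 14 (Gpi1, Pfkl, Aldoa, Tpi1, Gapdh, Pgk1, Pgam1 and Pkm), as did 30.6% of all genes, and 4 at day 1. Hif1a did not pass 2-fold, at 171, 165, 97.0, 89.4 and 103 CPM. Of the HIF target genes, P4ha1 was at 157, 120, 57.2, 72.1 and 83.3 CPM and Ddit4 at 140, 80.1, 55.5, 49.4 and 34.1 CPM, so both were highest in sham. Ndrg1 was at 30.3, 14.0, 6.55 and 16.9 CPM up to day 7 and at 139 CPM at day 14 (2.20, 1.86 to 2.55). Oligodendrocyte markers in these cells summed to 3212, 1431, 460, 1664 and 2209 CPM from sham to day 14 (16 of 16 detected in each). The part of oligodendrocyte RNA in the Ndrg1 values was not tested. Ero1l was at 27.5, 45.7, 16.1, 12.3 and 16.2 CPM, Adm at 11.9, 29.2, 14.8, 2.04 and 4.33 CPM and P4ha2, the partner isoform of P4ha1, at 14.7, 27.2, 10.4, 9.83 and 7.03 CPM, each highest at day 1. The astrocyte-like cells came mainly from other clusters in each library. Monocyte/macrophage markers in them summed to 202 CPM in sham (15 of 24 detected) and to 1692, 8297, 2083 and 11615 CPM after injury (20 to 23 of 24). That list includes Vim and S100a6, and it summed to 13696 CPM in ependymal-like cells at day 1, with 13 of 24 genes at 0. Whether these sums reflect macrophage RNA or genes of the astrocyte-like cells, and their part in the values above, was not tested.

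Oligodendrocyte-like cells (377 to 2042 per library), from clusters led by Mal up to day 7 and by Ermn at day 14, had lower enzyme levels than astrocyte-like cells and higher Ndrg1 and Bnip3l. In sham, 10 of 15 enzymes were at least 2-fold lower than in astrocyte-like cells and 0 higher (22.5% and 16.8% of all genes), with a median of -1.62 against -0.05, and at day 14 it was 12 of 16 (25.4% and 14.5%), with a median of -2.05. In contrast 4 of 7 measured HIF targets were higher in sham and 1 lower. Ndrg1 was at 976, 784, 441, 649 and 1216 CPM, and Bnip3l at 556, 518, 249, 401 and 663 CPM. In each of the 5 libraries both had their highest level in oligodendrocyte-like cells among the classes compared, and both were lowest at day 3.

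After injury, 5 of 16 enzymes rose in oligodendrocyte-like cells at day 1 (Hk1, Hk2, Tpi1, Eno2 and Ldha) and 2 fell (Pfkm and Ldhb), beside 6.59% and 4.95% of all genes. Counts were 3 and 0 at day 3 (10.1% and 14.2%), 4 and 1 at day 7 (5.09% and 5.66%) and 2 and 1 at day 14 (4.0% and 3.73%). Ldha was at 40.6, 148, 44.2, 26.0 and 25.4 CPM, high at day 1 alone (1.86, 1.54 to 2.20), while Tpi1, at 63.8, 151, 140, 133 and 86.1 CPM, remained high to day 7. Hk2 peaked later, at 9.81, 23.6, 55.7, 21.2 and 5.88 CPM. Ldhb was at 110, 49.3, 106, 89.5 and 60.4 CPM, lowest at day 1.

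Day 3 brought the largest changes of HIF target genes in oligodendrocyte-like cells among the 4 days. Ddit4 stood at 148 and 127 CPM in sham and at day 1, at 641 CPM at day 3 (2.12, 1.93 to 2.31) and at 105 and 54.0 CPM later. P4ha1 was at 61.1, 59.7, 9.92, 44.9 and 33.7 CPM, lowest at day 3 (-2.62, -3.57 to -1.80). Slc16a1, through which oligodendrocytes release lactate, was at 95, 74.9, 19.1, 58.2 and 66.0 CPM and was lowest in the same library. Adm, the precursor of the vasodilator adrenomedullin, had 3 UMIs in sham and 33 at day 3, a log2 ratio of 4.23 (2.56 to 6.58), and was named after its values were seen. Hif1a stayed within 2-fold of sham, at 59.3 to 94.8 CPM, Slc2a1 at 54.2 to 86.1 CPM and Pdk1 at 3.31 to 13.7 CPM.

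Endothelial-like cells (65 to 394 per library, 84 in sham, from the cluster led by Cldn5) held the highest Slc2a1 of the classes compared in each of the 5 libraries, at 843 CPM in sham (682 to 1029) and 1507, 2393, 1213 and 633 CPM from day 1 to day 14. The day 3 ratio was 1.51 (1.20 to 1.83) and day 14 was the lowest library. Adm was at 17.6 CPM in sham, from 2 UMIs, and at 226, 89.8, 68.2 and 142 CPM, with day 1 ratio 3.69 (1.74 to 6.79). Ddit4 was at 52.7, 173, 385, 192 and 35.4 CPM, again highest at day 3 (2.87, 1.70 to 4.35). Ankrd37, a small ankyrin-repeat gene, was at 96.5, 214, 21.6, 73.1 and 94.3 CPM, high at day 1 and low at day 3.

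Slc16a1 in endothelial-like cells fell at days 1 and 3, from 439 to 197 and 155 CPM, and stood at 666 and 557 CPM at days 7 and 14. P4ha1 was at 123, 83.4, 10.8, 47.2 and 73.2 CPM, with 3 UMIs at day 3 and a ratio of -3.51 (-5.95 to -1.67). Hk2 was at 132, 65.5, 35.9, 14.1 and 90.5 CPM and Ldhb at 167, 41.7, 79.1, 219 and 198 CPM, so that Hk2 was lowest at day 7 (-3.22, -4.04 to -2.31) and Ldhb at day 1 (-2.00, -3.49 to -0.69). Pfkl had its lowest level at day 3, 18.0 against 96.5 CPM in sham, and Pfkm at day 14, 6.79 against 70.2. Ldha (327 to 435 CPM), Hif1a (105 to 173 CPM) and Pdk1 (17.6 to 34.7 CPM) did not move 2-fold.

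Counts in endothelial-like cells lay close to the background: 3 enzymes rose and 3 fell of 15 at day 1 (16.4% and 19% of all genes), 2 and 4 at day 3 (12.9% and 30.6%), 3 and 1 at day 7 (10.5% and 16.4%) and 2 and 1 at day 14 (10.3% and 22.8%), where TMM factors gave 5 and 1. Of 8 HIF targets, 3, 2, 2 and 1 rose and 0, 3, 1 and 1 fell at days 1, 3, 7 and 14. Oligodendrocyte markers in the sham endothelial-like cells summed to 20054 CPM (16 of 16 detected), against 1989 to 3433 CPM after injury (9 to 16 of 16), and erythroid markers to 11032, 2388, 686, 111 and 15543 CPM (4 to 7 of 8 detected). Their part in the ratios to sham was not tested.

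Oligodendrocyte precursor-like cells, from the cluster led by Tnr, could be compared at days 3, 7 and 14 against 61 sham cells, since day 1 held 32 cells. Enzymes rose in 5 of 16 cases and fell in 3 at day 3 (10.5% and 30.4% of all genes), in 0 and 2 at day 7 (8.3% and 23.8%) and in 1 and 3 at day 14 (9.15% and 21%). With TMM factors these counts were 9 and 3, 3 and 2, and 5 and 2. Ldha was at 131 CPM in the sham library, then at 374, 166 and 230 CPM at days 3, 7 and 14, Pgam1 at 118, 327, 190 and 242 CPM, and Pkm at 184, 442, 243 and 318 CPM. Day 3 was the highest library for these 3 genes. Pfkm, the muscle-type phosphofructokinase, fell from 118 to 18.8, 21.6 and 15.9 CPM.

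Slc2a3, the glucose transporter of neurons and some immune cells, fell in precursor-like cells from 78.8 CPM in sham, which rests on 6 UMIs, to 38.4, 8.34 and 14.5 CPM. P4ha1 was at 131, 16.3, 64.3 and 53.8 CPM, Ndrg1 at 144, 1.67, 25 and 21.4 CPM, Ddit4 at 184, 73.8, 132 and 50.3 CPM and Bnip3l at 131, 78.4, 119 and 108 CPM. For P4ha1 and Ndrg1 day 3 was the lowest library. HIF targets other than those just named also rose in precursor-like cells, in 3 pairs of a gene and an injured library. The shares of all genes that rose and fell on these days are given above with the enzymes of this class. Hif1a lay between 118 and 161 CPM, Pdk1 between 12.1 and 27.5 CPM, and Hk2 had 0 UMIs in sham, which allows up to 48.4 CPM, and 21.7 to 45.1 CPM after injury. Slc2a1 also had 0 UMIs in sham. The oligodendrocyte markers in these cells summed to 23503, 1514, 37647 and 19720 CPM (16 of 16 detected in each), lowest at day 3, and their part in the Ndrg1 values was not tested.

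Progenitor- or neuroblast-like cells (190 to 1661 per library, from clusters led by Sox11 and a smaller one led by Igfbpl1) held 3 enzymes that rose and 1 that fell of 15 at day 1 (6.01% and 7.58% of all genes), 1 and 2 at day 3 (7.76% and 13.9%), 5 and 1 of 16 at day 7 (11.8% and 8.26%) and 1 and 1 at day 14 (7.4% and 9.19%). Ldha was at 48.6, 169, 84.8, 109 and 97.4 CPM, again highest at day 1 (1.80, 1.12 to 2.57), and Tpi1 was highest at day 7, at 223 CPM against 111 in sham (1.01, 0.55 to 1.51). Ddit4 was at 127, 94.5, 63.3, 46.9 and 24.2 CPM, highest in sham. Hif1a lay between 67.5 and 96.4 CPM, Hk2 between 13.5 and 49.9 CPM and Slc2a1 between 3.91 and 19.5 CPM.

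**Figure D2:**
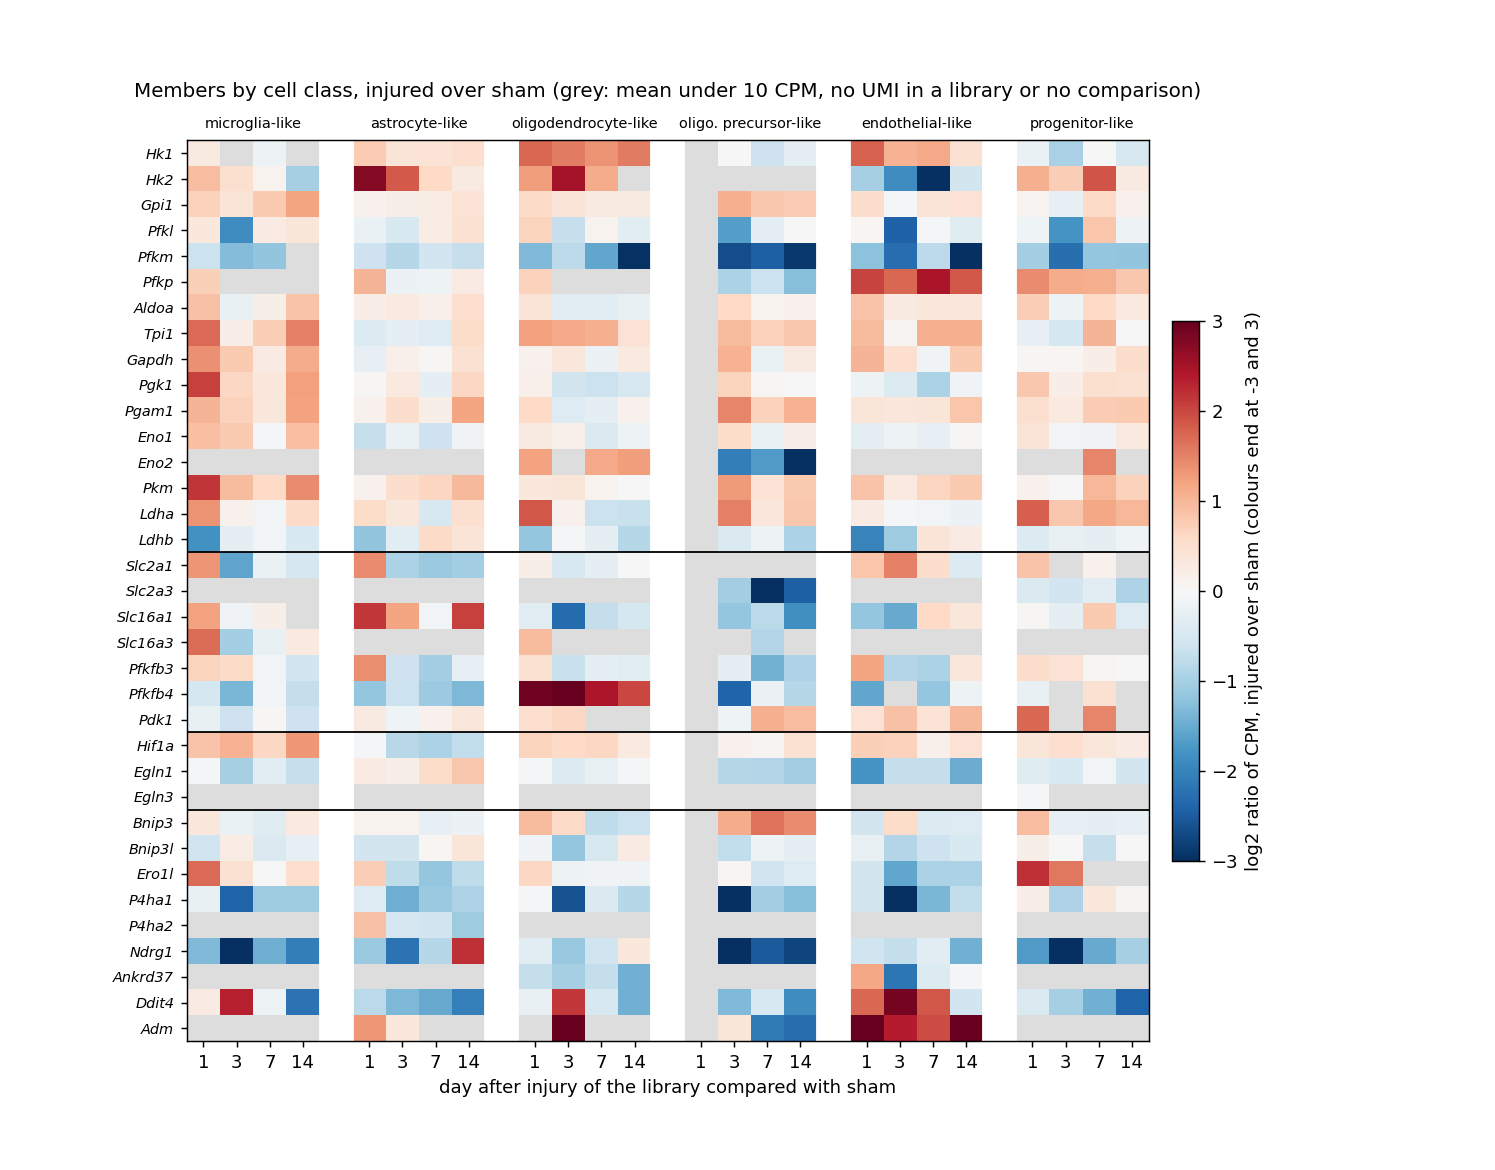
Log2 ratio of CPM, injured library over sham, for the 35 members (rows, in the order enzymes, transport and control, HIF and prolyl hydroxylases, HIF targets) in 6 cell classes at days 1, 3, 7 and 14 (columns). Red is above sham, blue below, and grey marks a mean under 10 CPM, no UMI in a library or no comparison; P4ha1 and Ndrg1 are blue in all 6 classes at day 3, and Ddit4 is red in 3 and blue in 3.

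The classes shared some changes and split on others, and since each ratio of a day uses a single injured and a single sham library, the classes are not independent of one another. At day 3, P4ha1 and Ndrg1 were below sham in 6 of 6 classes and at least 2-fold below in 5 of 6 (all but progenitor-like cells for P4ha1 and all but endothelial-like cells for Ndrg1). Among 5842 genes measured in the 6 classes, 3.12% were at least 2-fold lower in 5 or more and 16.0% lay below sham in all 6. Oligodendrocyte markers were also lowest at day 3 in microglia-like, astrocyte-like and precursor-like cells, among the libraries compared. Their part in the shared fall of Ndrg1 was not tested. At day 1, Ldhb was at least 2-fold lower in 4 of 5 classes (1.71% of 6187 genes), and Ldha lay above sham in 5 of 5, as did 11.3% of those genes. At day 14, Ddit4 was at least 2-fold lower in 5 of 6 classes (1.61% of 5961 genes), with endothelial-like cells the exception. Ddit4 at day 3 rose in microglia-like, oligodendrocyte-like and endothelial-like cells and fell in astrocyte-like, precursor-like and progenitor-like cells. The fall in precursor-like cells did not pass 2-fold under either other scaling, and that in progenitor-like cells lay close to the 2-fold line.

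**Figure D3:**
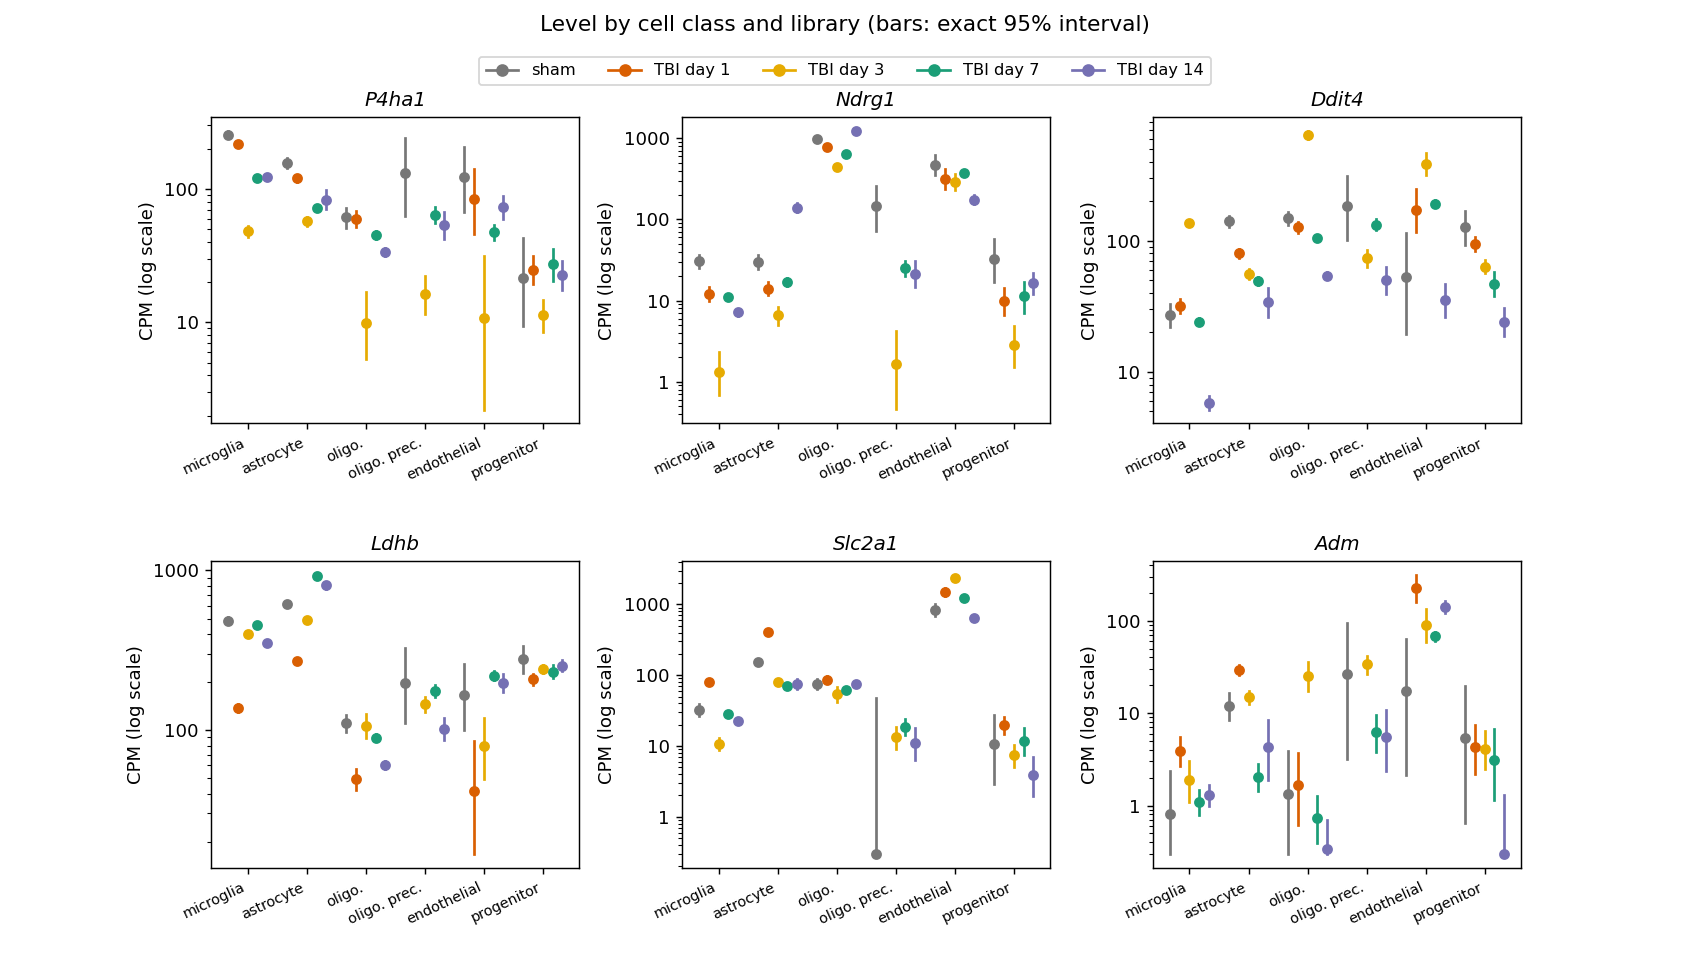
CPM of 6 members on a log axis by cell class, with 1 point per library coloured by group and exact 95% intervals; a level of 0 is drawn at 0.3 CPM. Day 3 is the lowest P4ha1 point in each of the 6 classes, Ddit4 peaks at day 3 in oligodendrocyte-like (641 CPM) and endothelial-like cells (385 CPM), and Slc2a1 is highest in endothelial-like cells.

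The monocyte/macrophage-like and neutrophil-like classes had too few sham cells for a ratio (17 and 5 cells), so they were compared with microglia-like cells of the same library and across injured days. Monocyte/macrophage-like cells (63, 784, 814 and 1204 at days 1, 3, 7 and 14) held 5 enzymes at least 2-fold higher and 1 lower of 15 at day 1 (14.5% and 18.7% of all genes), 5 and 2 of 14 at day 3 (6.47% and 18.7%), 1 and 0 of 13 at day 7 (3.3% and 7.9%) and 1 and 2 of 13 at day 14 (5.23% and 5.17%). With TMM factors days 3, 7 and 14 gave 10 and 2, 5 and 0, and 2 and 2. The medians of 0.58, 0.91 and 0.54 at days 1, 3 and 7 stood against -0.09, -0.23 and -0.27 over all genes, and day 14 had -0.19 against -0.05. The cluster led by Pf4 held most of these cells at days 1 and 3, that led by Gpnmb at day 7 and that led by Ccl8 at day 14. The cluster led by Gpnmb was named on 7 of 24 markers. Microglia markers in these cells summed to 18597, 15106, 35155 and 27535 CPM at days 1, 3, 7 and 14. Monocyte/macrophage markers summed to 25812, 21711, 18129 and 30582 CPM. The origin of these cells, and the part of microglial RNA in their values, was not tested.

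Pgam1 was at 301, 493, 232 and 234 CPM in monocyte/macrophage-like cells at days 1, 3, 7 and 14, and at 184, 146, 114 and 209 CPM in microglia-like cells. The day 3 difference was 1.76 (1.66 to 1.86) on the log2 scale, and the classes were close at day 14. Pfkp reached 63.4 CPM at day 1 against 15 in microglia-like cells. Hk2 and Ldhb were lower in monocyte/macrophage-like cells on each of the 4 days, at 82.5 to 215 CPM and 59.3 to 235 CPM, against 187 to 710 and 138 to 456 CPM in microglia-like cells. Pkm, at 935, 801, 381 and 331 CPM, and Ldha, at 420, 401, 239 and 238 CPM, were above microglia-like cells at day 3, when those held 277 and 197 CPM.

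HIF target genes were high in monocyte/macrophage-like cells at day 1, with 5 of 7 measured at least 2-fold above microglia-like cells and 0 below (14.5% and 18.7% of all genes), at a median of 1.33; the counts were 0 and 1 at day 3, 0 and 0 at day 7 and 1 and 0 at day 14. Ero1l was at 111, 26.9, 16.0 and 20.2 CPM, Bnip3 at 111, 42.7, 46.7 and 28.4 CPM and Egln3, a prolyl hydroxylase that HIF induces, at 71.3, 6.28, 8.48 and 5.46 CPM. For these 3 genes the day 1 interval lay above those of the later libraries, although it rested on 63 cells. Ndrg1 was at 63.4 and Ddit4 at 95 CPM at day 1. Hif1a was at 285, 180, 124 and 128 CPM, Slc2a1 at 47.5, 7.15, 27.4 and 14.4 CPM and Pdk1 at 31.7, 11, 34.7 and 14.7 CPM.

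Neutrophil-like cells (148, 391, 89 and 83) had higher transport and HIF target levels than microglia-like cells at day 1. Of 7 transport and control members 4 were at least 2-fold higher and 1 lower, and of 7 HIF targets 6 were higher and 0 lower (19.7% and 32.1% of all genes), with a HIF target median of 1.95 against -0.30. Slc2a1 was at 331, 39.9, 136 and 62.7 CPM from day 1 to day 14, Slc16a3 at 324, 73.8, 144 and 269 CPM and Slc2a3 at 101, 33.9, 86.5 and 143 CPM. The day 14 log2 difference of Slc2a3 from microglia-like cells was 5.70 (5.19 to 6.18), where those held 2.77 CPM. Egln3 was at 149, 17.9, 33.0 and 65.7 CPM, Ero1l at 284, 16.0, 45.3 and 62.7 CPM and Bnip3l at 358, 191, 111 and 143 CPM. Each of these except Slc2a3 was highest at day 1.

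Day 3 neutrophil-like cells stood apart from those of day 1. Of 14 enzymes 10 were at least 2-fold lower and 0 higher (15.7% and 25.9% of all genes), at a median of -1.28 against 0.24, and 5 of 7 HIF targets were lower at a median of -2.29. Aldoa was at 993, 195, 663 and 764 CPM, Pkm at 791, 381, 795 and 773 CPM, Pfkp at 142, 21.9, 53.6 and 44.8 CPM and P4ha1 at 169, 12, 86.5 and 62.7 CPM. Day 3 was the lowest library for each of these 4 genes. Neutrophil markers in the same cells summed to 132863, 48756, 42222 and 172827 CPM (15 or 16 of 16 detected) and microglia markers to 5089, 8465, 15042 and 8602 CPM (19 of 19), and their part in the enzyme values was not tested. Ldha was at 433, 193, 280 and 475 CPM, Hif1a at 243, 179, 148 and 140 CPM, Hk2 at 264, 120, 239 and 137 CPM and Pdk1 at 47.3, 16.0, 65.9 and 17.9 CPM.

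**Figure D4:**
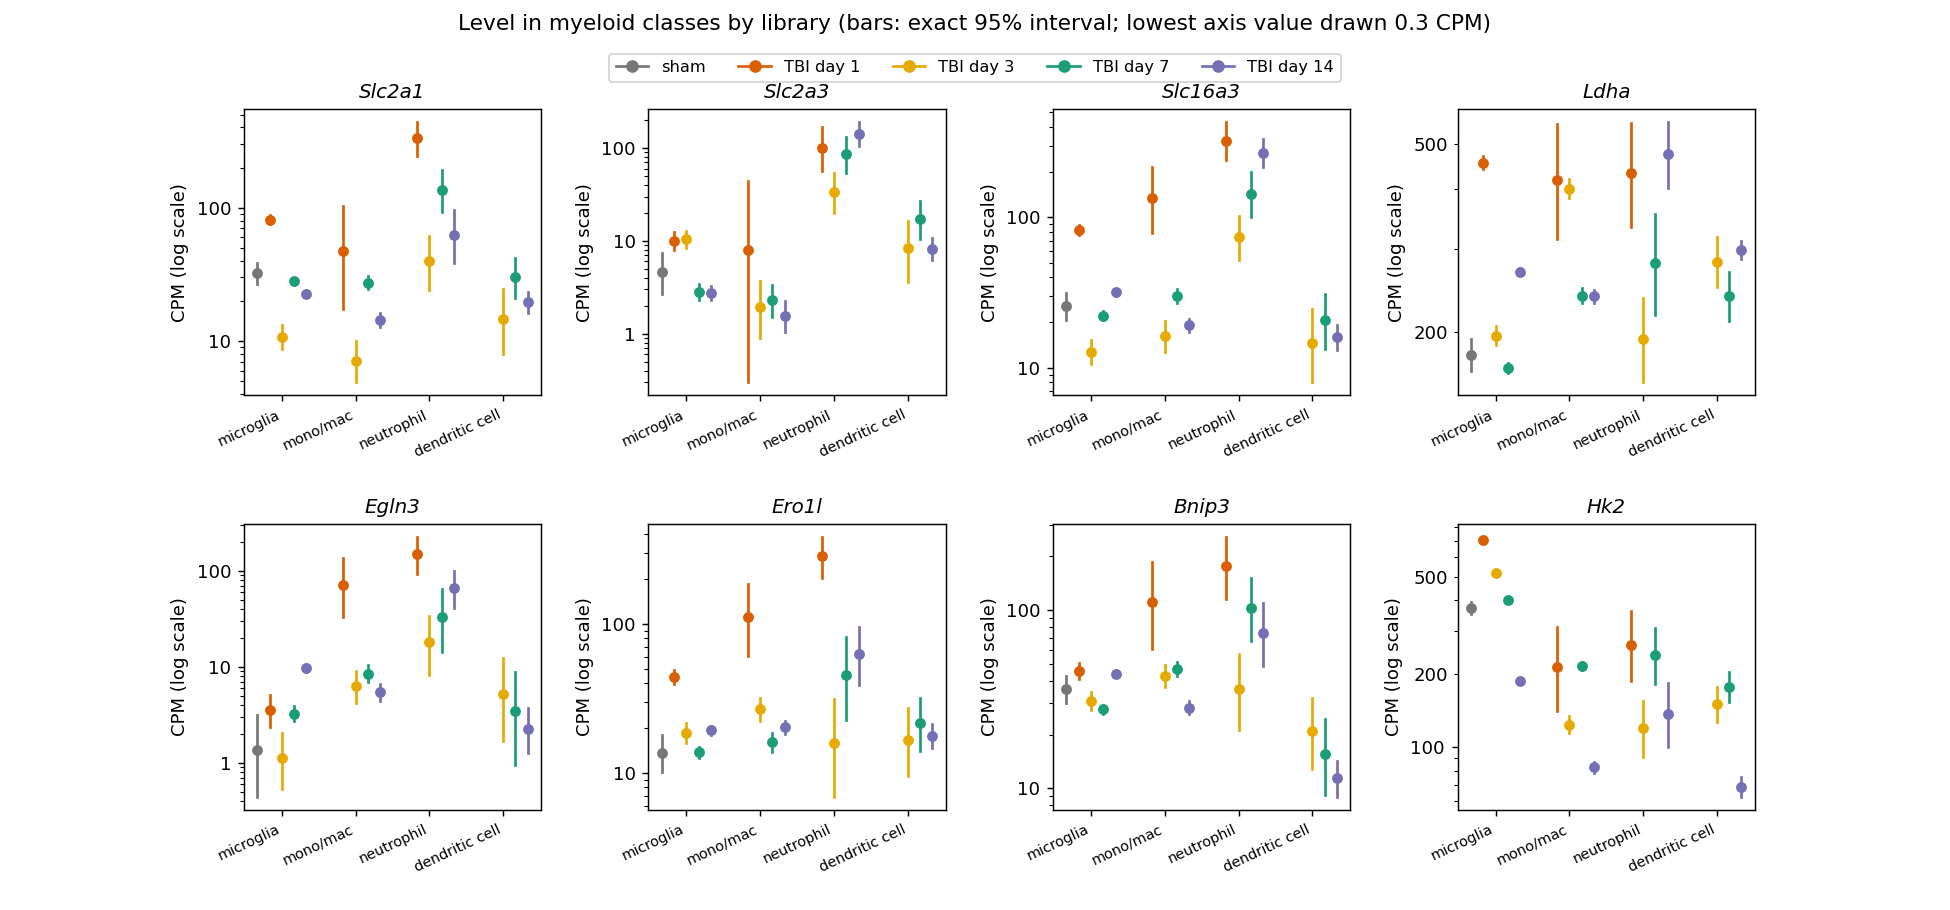
CPM of 8 members on a log axis in 4 myeloid classes, 1 point per library with exact 95% intervals; classes with under 50 cells in a library have no point. Slc2a1, Slc2a3, Slc16a3 and Egln3 are highest in neutrophil-like cells on each injured day, whereas Hk2 is highest in microglia-like cells.

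Dendritic cell-like and T or NK cell-like cells were present in sufficient number at days 3, 7 and 14. Hk2 was at 151, 177 and 68.6 CPM and Ldha at 281, 238 and 299 CPM in dendritic cell-like cells, and at 66.9, 77.3 and 36.8 CPM and 360, 254 and 394 CPM in T or NK cell-like cells. Hif1a lay between 109 and 167 CPM and between 122 and 188 CPM, Slc2a1 between 14.6 and 30.2 CPM and between 13.7 and 23.8 CPM, and Pdk1 between 12.5 and 28.5 CPM and between 23.2 and 33.5 CPM. Ddit4 fell with time in dendritic cell-like cells, at 253, 69.0 and 36.4 CPM, the day 3 level being more than 2-fold above both later ones. Choroid plexus-like cells (91, 173 and 148 at days 1, 3 and 14) held Hk2 at 182, 23.9 and 9.40 CPM, Ldha at 280, 307 and 250 CPM, Hif1a at 157, 145 and 83.3 CPM, Slc2a1 at 108, 67.7 and 38.2 CPM and Pdk1 at 19.6, 23.9 and 16.9 CPM. Ependymal-like cells, which reached 50 cells at day 1 alone, held Slc2a1 at 274, Hk2 at 86.7, Ldha at 231, Hif1a at 68.6 and Pdk1 at 57.8 CPM, and plasma cell-like cells of day 14 held Hk2 at 23.3, Ldha at 46.0 and Hif1a at 28.3 CPM.

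Across the classes compared in a library, the class with the highest level differed between members. In sham it was the astrocyte-like class for 13 of 35 members, 10 of them enzymes, and the microglia-like class for 5 (Hk2, Slc16a3, Pfkfb3, Pdk1 and P4ha1). Hk2 had its highest level in microglia-like cells in each of the 5 libraries, with day 14 at 187 CPM (183 to 191) ahead of 137 CPM (101 to 183) in neutrophil-like cells. Pdk1 was also highest there in the 5 libraries, but its level lay within the interval of ependymal-like cells at day 1 (57.8, 33.0 to 93.8), of endothelial-like cells at days 3 (32.3, 14.8 to 61.4) and 14 (34.7, 25.4 to 46.3), and of neutrophil-like cells at day 7 (65.9, 37.7 to 107). The same held for precursor-like cells in sham, where 1 UMI was worth 13.1 CPM. Neutrophil-like and monocyte/macrophage-like cells at day 1 also had intervals that covered the microglia-like level. At days 7 and 14 neutrophil-like cells had the highest level of 10 members each. They held 89 and 83 cells on those days, and 1 UMI was worth 4.12 and 2.99 CPM, so levels of low genes are uncertain there. These counts by class are given without the share of all genes highest in the same class, and they describe the members alone.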

How the data were processed

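Droplet 3′ single-cell libraries of cortex, 1 per group, were read as the UMI count matrices the authors deposited; per the file headers they were made with Cell Ranger 4.0.0, and the submitters' processing notes name STAR, Seurat 3.2.0 and the GRCm38 (mm10) genome. Barcodes under 500 UMIs or 200 genes, or with over 20% mitochondrial UMIs, were left out, after barcodes that the Scrublet caller in scanpy 1.11.5 marked as doublets in each library (3.16% to 8.52%) were removed. Cells were clustered on 2000 variable genes, from which the 35 members and the other pathway genes were left out, with 30 principal components, 15 neighbours and Leiden resolution 1. A cluster was named after a class when at least 3 of its markers were in at least 10% of cells and at least 2-fold above clusters of other classes with 10 CPM added, unless its top 10 genes spoke for another class; 31 of 33 clusters were named.

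Counts were summed by class and library and scaled to CPM, with exact Poisson intervals for levels, exact conditional binomial intervals for ratios (both 95%) and a floor of 3 UMIs for a gene at 0. UMIs remove most copies made by PCR, and intervals cover counting error only. A class with fewer than 50 cells in either library of a comparison was not compared. TMM factors came from edgeR 4.0.16, which was used for scaling and not for a test. Only the ratios and their intervals were tried on simulated data, for microglia-like and endothelial-like sums at day 1 over sham. Those data were drawn from the Poisson model that the intervals assume, so they do not test that model. Clustering and naming of cells were not tested in this way. The members and the lists were chosen with earlier results of these data known. All members were accounted for, and levels in every library were given for members with at least 50 CPM in a library and a 2-fold difference from sham, for Hif1a, Hk2, Slc2a1, Ldha and Pdk1 in every class, for up to 4 members of a list with the largest ratios in other classes, and for the 3 other genes of a pathway list with the largest ratios in microglia-like cells. Genes that this rule did not name are said to be so. One gene that the rule named is not reported here. Aldoa has 2 gene IDs in the annotation and the one with nearly all of the UMIs was used; Eno1b, a near copy of Eno1, held 1.47% as many UMIs as Eno1, so that reads of the pair could have been split between them.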

Additional observations from a re-analysis of the deposited data

Results flagged for a closer look

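Pfkfb4, which encodes a bifunctional enzyme that tunes phosphofructokinase, moved in opposite directions in astrocyte-like and oligodendrocyte-like cells in each of the 4 injured libraries. In astrocyte-like cells it was at 46.5 CPM in sham and 20.7, 29.6, 21.8 and 18.4 CPM at days 1, 3, 7 and 14, with log2 ratios of -1.17, -0.65, -1.09 and -1.34. In oligodendrocyte-like cells it was at 4.01 CPM in sham and 30.6, 38.1, 21.4 and 16.1 CPM, with log2 ratios of 2.93, 3.25, 2.41 and 2.01. The mean ratio over the 4 libraries was lower in astrocyte-like cells by a difference of -3.71. The 4 ratios of a class share 1 sham library, and the difference between the classes was not tested.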

How the results depend on the processing

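With 1 library per group no test could be run, and the counts of member and library pairs at least 2-fold higher were recomputed under 15 alternatives. Of 170 such counts, 146 stayed within 1.5 times the reported one, and of 773 list medians 696 stayed within their interval and 77 moved. Medians took the other sign in 7 comparisons with TMM factors and in up to 6 under each of the other alternatives. The reported counts of enzymes above sham were 12 in microglia-like, 4 in astrocyte-like, 14 in oligodendrocyte-like, 6 in precursor-like and 10 in endothelial-like cells, and those of HIF targets 2, 2, 2, 3 and 8; monocyte/macrophage-like over microglia-like cells gave 12 and 6. TMM factors gave 23 (microglia-like), 17 (precursor-like) and 22 (monocyte/macrophage-like) enzymes, and the median of all genes as reference gave 21, 17 and 19; by construction both raise every ratio of a library whose genes lie mostly below sham. A minimum of 50 CPM, under which fewer genes are measured, gave 4 enzymes in oligodendrocyte-like, 4 in endothelial-like and 7 in monocyte/macrophage-like cells, and 1, 1, 1, 0 and 3 HIF targets in microglia-like, astrocyte-like, oligodendrocyte-like, precursor-like and monocyte/macrophage-like cells. No filter on low values gave 5 HIF targets in microglia-like cells. For the remaining changes the cause was not tested: cells of at least 1000 UMIs gave 2 astrocyte-like enzymes; Leiden resolution 2 gave 1 astrocyte-like and 5 precursor-like HIF targets; naming each cell by its best marker score gave 1 astrocyte-like HIF target and 15 precursor-like enzymes; and the mean over cells gave 3 precursor-like enzymes. The 5 to 19 range of immediate early and heat shock UMIs gave 6 microglia-like enzymes, and it gave 2 astrocyte-like enzymes and 1 monocyte/macrophage-like HIF target with fewer comparisons, since astrocyte-like cells at days 3, 7 and 14 and monocyte/macrophage-like cells at day 1 fell under 50 cells. For the same reason there was no value for endothelial-like and precursor-like cells at 1000 UMIs, or for those and oligodendrocyte-like cells in that range. In an alternative chosen after seeing the data, leaving out 1 injured library at a time gave 6 to 12 microglia-like, 2 to 4 astrocyte-like, 9 to 12 oligodendrocyte-like, 1 to 6 precursor-like, 7 to 8 endothelial-like and 7 to 11 monocyte/macrophage-like enzymes, and 1 to 2, 1 to 2, 0 to 2, 2 to 3, 5 to 7 and 1 to 6 HIF targets in the same order. The lowest microglia-like enzyme count, 6, came without day 1 or without day 14, and the lowest monocyte/macrophage-like HIF target count, 1, without day 1. No paired analysis was possible because each group is a single library. Depth limits the sham ratios of endothelial-like (84 cells) and precursor-like cells (61 cells), where 1 UMI was worth 8.78 and 13.1 CPM.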
